A study of Mus musculus with 4 samples.

Results

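The receptor complex through which Norrin and the Wnt7 proteins signal to endothelial cells (ECs) was examined in ECs sorted from dura mater and from brain parenchyma. Its 8 genes were taken by symbol from the 23282 entries of the count tables, and each had 1 entry. They were the receptors Fzd4 and Fzd6, the co-receptors Lrp5 and Lrp6, the Norrin co-activator Tspan12, the Wnt7 co-receptors Adgra2 (Gpr124) and Reck, and Ctnnb1, which encodes beta-catenin. RNA was sequenced from 2 libraries of brain ECs and 2 of dura mater ECs, from C57BL/6J mice aged 8 weeks with no listed treatment. The cells were sorted as CD31+, CD45- and TER-119-, and brain ECs alone were first enriched on magnetic CD31 beads, so this step and the tissue cannot be told apart. The number of mice behind a library is not given in the sources used here, and p-values therefore measure the spread between libraries, which may be technical.

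Norrin, a secreted protein unrelated to the Wnts in sequence, binds the Frizzled receptor Fzd4 together with Lrp5 or Lrp6, and Tspan12 strengthens this signal. Wnt7a and Wnt7b, which are made by neural cells, need Reck and Adgra2 at the EC surface to act through Frizzled and Lrp5 or Lrp6. Both routes keep beta-catenin from being degraded, so that it can enter the nucleus and act with TCF and LEF factors. This pathway is known for growing the vessels of brain and retina and for keeping their barrier properties.

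The libraries held 13518973 to 16096203 counts, and 9350 to 11803 entries had at least 1 count. Between replicates, log CPM (counts scaled to the size of the library) of the 9347 tested genes correlated with a Pearson's r of 0.473 for brain ECs and 0.594 for dura mater ECs, and between tissues it ranged from 0.324 to 0.51. Dura mater replicate 2 had the most entries at 64 or more counts (9835, against 6608 to 7281 in the other 3). Between 7 and 64 counts stood only 533 to 1087 entries per library, and 881 to 2436 had 1 to 7. All 10 endothelial markers were counted in each library, with a summed level of 9856 and 12393 CPM in brain ECs and of 8502 and 10748 CPM in dura mater ECs. Their members Pecam1 and Cdh5, which define ECs, had 8390 to 23619 and 4708 to 7931 counts. Ptprc, which encodes CD45, had 1 to 4 counts per library.

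Markers of other cells were present. The sums of fibroblast, lymphatic, erythroid and astrocyte markers did not overlap between the tissues. Those of mural cell, neuron, oligodendrocyte and leukocyte markers did. Of 7 fibroblast markers, 5 to 7 were counted per library, and their sum was 7.34 and 50.7 CPM in brain ECs against 367 and 348 CPM in dura mater ECs, with the defining marker Pdgfra at 0 to 1 count. Of 8 mural cell markers, 5 were counted in each brain library and 8 in each dura mater library (383 and 895 CPM against 683 and 486 CPM). Acta2 alone stood at 342 and 801 against 560 and 221 CPM. Kcnj8 had 0 counts in both brain libraries against 468 and 410, Cspg4 0 and 1 against 263 and 65, and Notch3 5 and 0 against 99 and 254. The tissues overlapped for Pdgfrb, Rgs5, Abcc9, Acta2 and Vtn. Of 4 lymphatic markers, 2 and 4 were counted (122 and 144 CPM against 280 and 359 CPM), and Prox1 and Lyve1 were at 0 in both brain libraries. The 5 erythroid markers summed to 17011 and 24016 CPM in brain ECs against 1420 and 675 CPM in dura mater ECs. The astrocyte markers (7 genes, Aqp4 at 0 throughout) summed to 51.5 and 8.28 against 433 and 158 CPM. The neuron markers (6 genes, Gad1 at 0 throughout) summed to 0.892 and 17.7 against 64.8 and 5.96 CPM. The oligodendrocyte markers (4 genes, Mag at 0 throughout) summed to 102 and 0.301 against 105 and 13.7 CPM. The leukocyte markers (7 genes, Cd3e at 0 throughout) summed to 0.961 and 49.8 against 43.4 and 28 CPM. These sums came mainly from Cd68, with 4 and 3 counts against 550 and 441, and from Csf1r, with 4 and 646 against 28 and 9. The part of these cells in the levels below was not tested. In bulk samples, fewer cells of a type and less RNA per cell cannot be told apart.

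The comparison asks whether the genes of this receptor complex differ between dura mater ECs and brain ECs, which form the blood-brain barrier. No member of the complex passed the test. In edgeR's quasi-likelihood test 0 of the 8 genes had an adjusted p under 0.05, where 0.610% of all genes tested did, and 0 of 8 had an unadjusted p under 0.05, where 10% of all genes did. In DESeq2 0 of 8 passed as well, against 9.02% of the genes with an adjusted p. The estimates leaned 4 each way. The median log2 fold change (dura mater over brain) of the 8 genes was −0.18, and that of all genes tested was −0.01. In Lrp5, 1 of the 8 members, both dura mater libraries lay above both brain libraries, which was so for 25.9% of all genes. In Adgra2 and Ctnnb1, 2 of the 8, both brain libraries lay above both dura mater libraries (17.1% of all genes). With 2 libraries against 2, an exact two-sided permutation test of a single gene cannot go below p = 0.333.

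**Figure D1:**
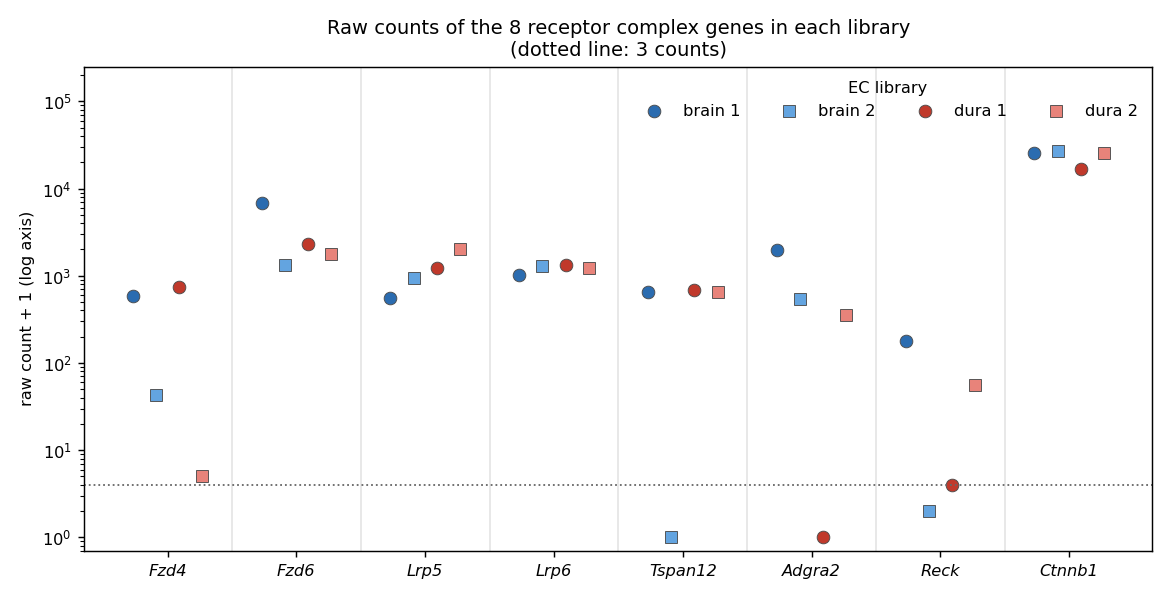
Raw counts plus 1 on a log axis for each of the 8 genes, with 1 point per library (blue for brain ECs, red for dura mater ECs, circles for replicate 1 and squares for replicate 2) and a dotted line at 3 counts. Ctnnb1, Lrp5 and Lrp6 have 4 points close together, whereas Fzd4, Tspan12, Adgra2 and Reck each have at least 1 library at 4 or fewer counts beside others at 42 or more.

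What set the members apart from each other was how well replicates matched. Ctnnb1, Lrp6 and Lrp5 differed between the libraries of a tissue by 1.14- to 1.87-fold. For 4 of the 8 genes (Fzd4, Tspan12, Adgra2 and Reck), 1 library of a tissue had 64 or more counts and the other 7 or fewer. This pattern was common: of the 11051 entries that reached 64 counts in any library, 44.8% showed it in at least 1 tissue. For Tspan12 and Reck it occurred in brain ECs, with replicate 2 low. For Fzd4 and Adgra2 it occurred in dura mater ECs, with replicate 2 low for Fzd4 and replicate 1 low for Adgra2. No single library was at 7 or fewer counts for all 4, but brain replicate 2 was the lower brain library for each of them. Over all genes tested, the median difference between replicates was 1.37 on the log2(CPM + 0.5) scale in brain ECs against 1.12 in dura mater ECs.

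**Figure D2:**
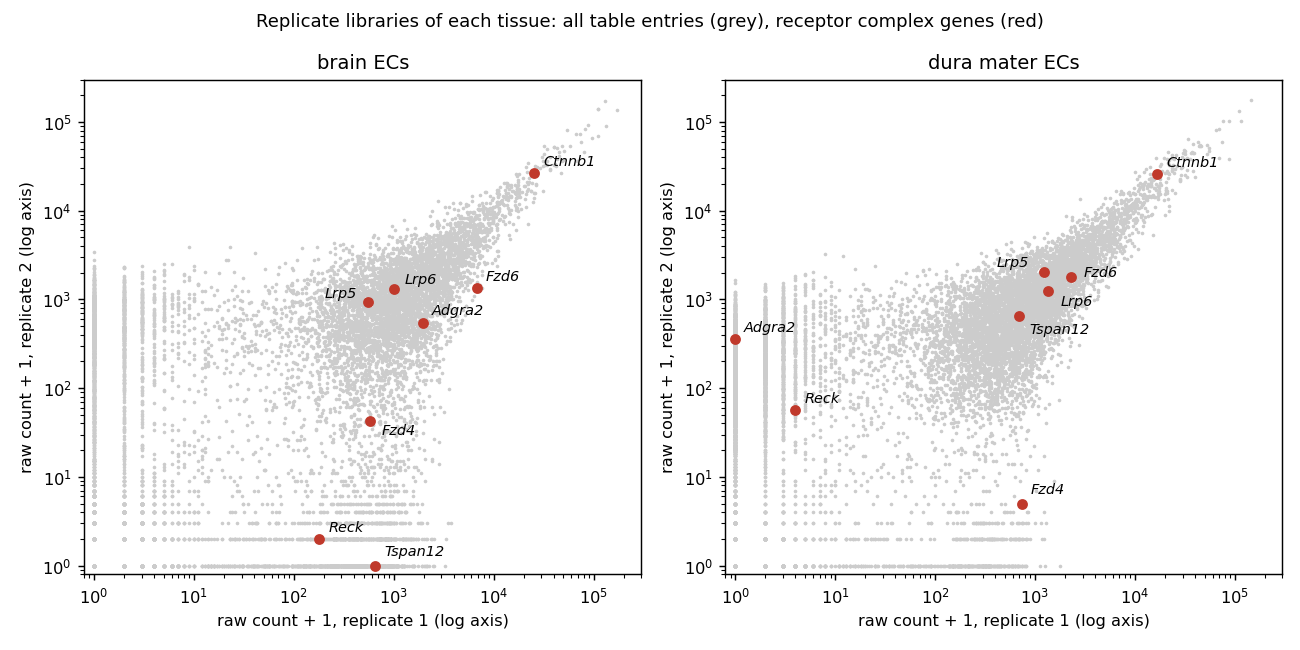
Raw counts plus 1 of replicate 2 (y axis) against replicate 1 (x axis), both on log axes, for brain ECs on the left and dura mater ECs on the right, with each table entry in grey and the 8 genes in red. Ctnnb1 lies at the upper end of the diagonal in both panels, while Tspan12 and Reck in brain ECs and Fzd4 and Adgra2 in dura mater ECs lie along the axes, as do many other entries.

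Of the Frizzled receptors, Fzd4 (chromosome 7, 89404355 to 89413134, plus strand, GRCm38), the Norrin receptor, had 583 and 42 counts in brain replicates 1 and 2 and 735 and 4 in dura mater replicates 1 and 2. Each tissue thus had a high and a low library, and the groups overlapped. The exact 95% Poisson interval, which covers counting error only, was 537 to 632 for 583 counts and 30.3 to 56.8 for 42 counts. At 21.6 ± 26.1 CPM in brain ECs against 27.3 ± 38.2 CPM in dura mater ECs (SD, n = 2), the log2 fold change was 0.34 (SE 2.73, 95% interval −6.26 to 6.94, edgeR adjusted p 1). Its sign was not stable: the estimate was −1.68 in limma-voom, −1.30 with the replicate number as a block, −0.57 without brain replicate 2, −5.95 without dura mater replicate 1, and 3.05 without brain replicate 1.

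Fzd6 (chromosome 15, 39006034 to 39038188, plus strand), a Frizzled known for planar cell polarity that is also present in brain ECs, was counted in full in each library. It had 6767 and 1328 counts in brain ECs against 2308 and 1775 counts in dura mater ECs, or 464, 99.9, 171 and 107 CPM. Brain replicate 1 was the highest and brain replicate 2 the lowest of the 4, so that both dura mater libraries lay between them. The log2 fold change was −1.01 (SE 0.78, 95% interval −2.91 to 0.88, edgeR adjusted p 0.873). The brain libraries decided this estimate. It was −1.79 without brain replicate 2 and turned to 0.45 without brain replicate 1, in fits that each leave 1 brain library.

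The co-receptors Lrp5 and Lrp6, related single-pass proteins that bind Norrin or Wnt together with a Frizzled, were counted in every library. Lrp5 (chromosome 19, 3584828 to 3686564, minus strand) had 38 and 71.1 CPM in brain ECs (554 and 945 counts) against 90.8 and 122 CPM in dura mater ECs (1228 and 2018 counts). The groups did not overlap, and the means were 54.6 ± 23.4 and 106 ± 21.8 CPM (SD, n = 2). The log2 fold change of 0.97 (SE 0.89, 95% interval −1.18 to 3.13) did not pass the test (edgeR adjusted p 0.947). It stayed above 0 under each of the 13 alternatives, from 0.54 to 1.42.

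Lrp6 (chromosome 6, 134446476 to 134566965, minus strand) had 1010 and 1303 counts in brain ECs against 1337 and 1235 in dura mater ECs. These are 69.3, 98, 98.8 and 74.4 CPM, so the groups overlapped and the means of 83.7 ± 20.3 and 86.6 ± 17.3 CPM lay closer together than replicates did. The log2 fold change was 0.06 (SE 0.82, 95% interval −1.92 to 2.04, edgeR adjusted p 1). That interval still allows a change of close to 4-fold either way, so an equal level was not shown. The sign flipped with RLE scaling (−0.01) and without brain replicate 1 (−0.21) or dura mater replicate 1 (−0.29).

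Since both co-receptors were counted in the same libraries, their ratio could be read without any scaling between libraries. This ratio was chosen after the counts were seen. It rests on the Lrp5 counts given above, so its order is not a separate result. There were 0.549 and 0.725 Lrp5 counts per Lrp6 count in brain ECs, compared with 0.918 and 1.63 in dura mater ECs. Both dura mater libraries were above both brain libraries, and the mean log2 ratio was 0.96 higher in dura mater ECs (exact two-sided permutation p = 0.333, the smallest that 2 libraries against 2 allow). The ratio of counts is not a ratio of molecules, since transcripts can differ in how they are captured. Whether transcript length affects these counts is not known.

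Tspan12 (chromosome 6, 21771395 to 21852515, minus strand), a tetraspanin that joins the Norrin receptor, had 652 and 0 counts in brain ECs against 687 and 655 in dura mater ECs. In 3 of the 4 libraries it stood within 39.5 to 50.8 CPM, and it was not detected in brain replicate 2, where 3 counts would have been 0.226 CPM. Brain replicate 1 was 198-fold above brain replicate 2 when the latter was taken at 3 counts, which allows for counting error only. The means were 22.4 ± 31.6 CPM in brain ECs against 45.1 ± 8.01 CPM in dura mater ECs (SD, n = 2), giving a log2 fold change of 1.02 (SE 2.72, 95% interval −5.57 to 7.60, edgeR adjusted p 1). Without brain replicate 2 the estimate was −0.04, and without brain replicate 1 it was 8.35.

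Adgra2 (chromosome 8, 27085583 to 27123436, plus strand), the adhesion G protein-coupled receptor that brain vessels need to answer Wnt7, had 1967 and 546 counts in brain ECs against 0 and 358 counts in dura mater ECs. The levels were 135, 41.1, 0 and 21.6 CPM, with both brain libraries above both dura mater libraries. The means were 88 ± 66.4 and 10.8 ± 15.2 CPM (SD, n = 2). This was the member with the largest estimate in size, a log2 fold change of −3.0, but its 95% interval ran from −9.16 to 3.16 (SE 2.55, edgeR adjusted p 0.921). The estimate remained below 0 under all 12 alternatives that could test it, from −9.25 without dura mater replicate 2 to −1.99 without brain replicate 1. It passed in none of those that kept every library. With replicate 1 taken at 3 counts, dura mater replicate 2 was 97.3-fold above it. The spread within dura mater ECs was thus larger than the gap from dura mater replicate 2 to brain replicate 2. Exons of Brf2, on the other strand, overlap 1.26% of the exon length of Adgra2, and Brf2 had 0 counts in brain ECs, 214 in dura mater replicate 1 and 10 in replicate 2.

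Reck (chromosome 4, 43875530 to 43944806, plus strand), the membrane-anchored protein that recognises Wnt7 and also inhibits matrix metalloproteinases, was the member with the fewest counts. It had 179 and 1 counts in brain ECs against 3 and 55 in dura mater ECs, that is 12.3, 0.0752, 0.222 and 3.31 CPM. As for Fzd4, each tissue had a higher and a lower library, and the groups overlapped. The exact 95% Poisson intervals were 0.0253 to 5.57 for the 1 count and 0.619 to 8.77 for the 3 counts, so these 2 libraries of different tissues could not be told apart at this depth. The log2 fold change was −1.71 (SE 3.12, 95% interval −9.26 to 5.83, edgeR adjusted p 1), and it turned to 3.11 without brain replicate 1. Adgra2 and Reck, which act as a pair, both had fewer counts in brain replicate 2 than in brain replicate 1. The size of the drop differed, from 1967 to 546 counts for Adgra2 and from 179 to 1 for Reck. Both were low in dura mater replicate 1, at 0 and 3 counts.

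The promoter windows of Fzd4, Tspan12 and Reck are shown because these are the members with 7 or fewer counts in a library for which a RefSeq window (GRCm38.p6, 250 bases before to 50 after the start) was at hand. Of the 8 genes, 4 had one. Capitals mark the GC box, GGGCGG, and the CCAAT box, CCAAT, on either strand. Of 32851 windows of this length, 35.7% hold the former and 37.4% the latter.
Fzd4, chr7:89404116-89404415, plus strand: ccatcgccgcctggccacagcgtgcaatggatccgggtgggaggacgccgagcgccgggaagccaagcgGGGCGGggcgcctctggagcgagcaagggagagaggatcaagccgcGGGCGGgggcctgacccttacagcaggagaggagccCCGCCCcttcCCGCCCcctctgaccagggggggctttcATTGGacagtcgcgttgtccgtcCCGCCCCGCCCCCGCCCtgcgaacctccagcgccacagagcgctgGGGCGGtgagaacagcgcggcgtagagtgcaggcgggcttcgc
Tspan12, chr6:21852484-21852783, minus strand: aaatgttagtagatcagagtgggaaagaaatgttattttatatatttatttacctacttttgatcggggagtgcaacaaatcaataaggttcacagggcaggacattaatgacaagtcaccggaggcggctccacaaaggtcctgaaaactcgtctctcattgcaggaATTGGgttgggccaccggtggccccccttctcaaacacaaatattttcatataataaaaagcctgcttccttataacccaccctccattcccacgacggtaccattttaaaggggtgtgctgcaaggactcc
Reck, chr4:43875280-43875579, plus strand: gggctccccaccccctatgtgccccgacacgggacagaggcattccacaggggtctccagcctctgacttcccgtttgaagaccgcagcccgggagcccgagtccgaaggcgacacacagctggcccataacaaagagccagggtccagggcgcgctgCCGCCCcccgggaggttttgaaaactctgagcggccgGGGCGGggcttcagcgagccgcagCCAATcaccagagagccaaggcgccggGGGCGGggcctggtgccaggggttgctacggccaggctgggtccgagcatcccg
The windows differ in base composition. That of Fzd4 is 72.7% G and C with 32 CpG sites and 8 GC box matches, some of them overlapping, and that of Reck is 69.3% with 23 CpG sites and 3 matches. The window of Tspan12 is 44% G and C with 7 CpG sites and no match to the GC box, close to the median of 7 CpG sites over all windows. Each of the 3 windows has 1 match to the CCAAT box. These matches are descriptions of letters only.

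Ctnnb1 (chromosome 9, 120929216 to 120960507, plus strand), the transducer shared by both routes and also a part of cell junctions, had 25630 and 26686 counts in brain ECs against 16730 and 25787 in dura mater ECs. The levels were 1759 and 2008 CPM against 1237 and 1553 CPM, so that both brain libraries stood above both dura mater libraries. It was the most evenly counted member, with brain replicates 1.14-fold and dura mater replicates 1.26-fold apart. The means were 1883 ± 176 and 1395 ± 224 CPM (SD, n = 2), and the log2 fold change was −0.42 with an SE of 0.29 (edgeR adjusted p 0.786). Its interval, −1.12 to 0.28, was the narrowest of the 8. It remained below 0 in all 13 alternatives, between −0.62 and −0.36. Exons of Ulk4, on the other strand, overlap 14.6% of the exon length of Ctnnb1, and Ulk4 had 0 counts in each library.

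**Figure D3:**
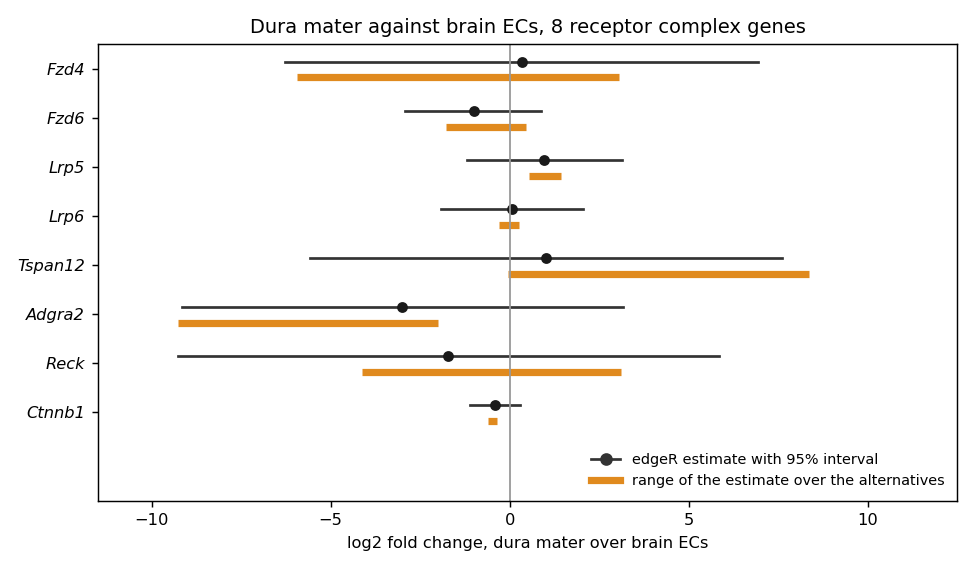
Log2 fold change of dura mater over brain ECs (x axis) for the 8 genes (y axis). Black points and lines give the edgeR estimate with its 95% interval, and orange bars the range of the estimate over the alternative tests, filters, scalings and left-out libraries. Each interval crosses 0, and the orange bars of Lrp5, Adgra2 and Ctnnb1 stay on 1 side of it.

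The rest of the pathway was read from 8 lists with 88 genes, of which 33 passed the filter on low counts. In edgeR 0 of the 33 passed (0.610% of all genes tested) and 10 had an unadjusted p under 0.05 (10% of all genes). In DESeq2 8 passed (9.02% of all genes with an adjusted p). Their median log2 fold change was 0.29, also with the 6 genes that had 3 or fewer counts in each library of a tissue set to that limit, against −0.01 over all genes tested. Of the 40 listed genes that reached 64 counts in any library, 12 had 7 or fewer in the other library of a tissue, a pattern seen in 44.8% of all entries that reached 64 counts.

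The ligands of the complex were at or near 0 in the sorted ECs. Ndp, which encodes Norrin, had 2 counts in brain replicate 2 and 0 in the other 3 libraries. Wnt7a had 0 counts throughout, and Wnt7b had 3 and 0 counts in brain ECs against 6 and 0 in dura mater ECs. Of the 20 ligands, 12 were at 0 in each library and 1 was tested. This was Wnt5a, which mostly acts without beta-catenin, with 1131 and 1308 counts in brain ECs against 637 and 77 in dura mater ECs. Its log2 fold change was −1.76 ± 1.46 (SE, edgeR adjusted p 0.91). Wnt5b and Wnt11 were counted in dura mater replicate 2 alone, with 210 and 74 counts.

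Other receptors did not pass either. Of these 12 genes, 4 were tested. Ryk, a Wnt receptor of the tyrosine kinase family, had 1358 and 1315 counts in brain ECs against 805 and 2641 in dura mater ECs. Fzd8 had 1695 and 209 against 53 and 965 counts, which overlapped. Fzd3 had 837 counts in brain replicate 1 and 0 to 6 in the other libraries, and was not tested. Among the 9 genes of the R-spondin axis, which controls the amount of Frizzled at the surface, Rspo3 was the one tested. It had 0 counts in both brain libraries against 427 and 155 in dura mater, which was 94.8-fold higher with brain taken at 3 counts per library (edgeR adjusted p 0.466). Its DESeq2 adjusted p was 0.0399. Znrf3 and Lgr4 were counted in dura mater replicate 2 alone (189 and 151 counts).

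The secreted inhibitors held the pathway gene with the lowest adjusted p. Notum, an enzyme that inactivates Wnt proteins and is itself a Wnt target, had 3643 and 1015 counts in brain ECs against 0 in both dura mater libraries. Notum was thus at least 811-fold higher in brain ECs against 3 counts per library (edgeR adjusted p 0.0647), and it passed in DESeq2 (adjusted p 7.12e-11). Kremen1, which binds the Lrp5 and Lrp6 inhibitor Dkk1, had 320 and 520 against 981 and 298 counts. Dkk3 had 334 counts in dura mater replicate 1 and 0 or 1 elsewhere. Of these 15 genes, 2 were tested.

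Genes that carry the signal inside the cell were mostly counted in every library. Of the 8 transducers 7 were tested, among them Csnk1d (3995 and 3931 against 6237 and 4865 counts), Csnk1g2 (3833 and 1019 against 1911 and 4492) and Dvl1 (2396 and 2026 against 2815 and 1146), each with overlapping groups after scaling. Of the 9 genes of the destruction complex, which marks beta-catenin for degradation, 8 were tested, and for 5 of them both dura mater libraries were above both brain libraries (25.9% of all genes). The kinases Gsk3b (3645 and 2917 against 2674 and 1232 counts) and Gsk3a (1801 and 1876 against 2982 and 3027) leaned in opposite directions, with log2 fold changes of −0.78 (edgeR adjusted p 0.895) and 0.62 (0.925). Csnk1a1 had 50 counts in brain replicate 1 and 1268 to 2182 in the other libraries. Chosen after their values were seen, the scaffold Axin1 had 0 and 1 counts in brain ECs against 1062 and 484 in dura mater ECs, and Btrc, the part that recognises marked beta-catenin, had 2 and 22 against 694 and 2128. Both passed in DESeq2 (adjusted p 0.000488 and 0.00191) and not in edgeR, as did Amer1 (0.00447) and the feedback target Nkd2 (0.0111).

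Of the 9 nuclear partners of beta-catenin 6 were tested. Tcf7l1, a TCF factor known mainly as a repressor, had 370 and 1083 counts in brain ECs against 6663 and 12015 in dura mater ECs, with means of 53.4 ± 39.7 and 608 ± 164 CPM (SD, n = 2). Its log2 fold change of 3.52 (SE 0.69) missed the edgeR threshold (adjusted p 0.13) and passed in DESeq2 (adjusted p 3.3e-05). Ctnnbip1, which blocks the binding of beta-catenin to TCF factors, went the other way, with 6848 and 4577 counts in brain ECs against 2245 and 1494 in dura mater ECs. The log2 fold change was −1.66 ± 0.51 (SE, edgeR adjusted p 0.391). Bcl9l had 2465 and 177 against 898 and 1065 counts. Of the 6 feedback targets, Nkd1 had 6227 and 4717 counts in brain ECs against 710 and 545 in dura mater ECs. The log2 fold change was −3.18 ± 0.54 (SE, edgeR adjusted p 0.085), and it passed in DESeq2 (adjusted p 0.00015). Axin2 had 1931 and 458 against 1 and 134 (edgeR adjusted p 0.606). Tnfrsf19 had 427 and 439 against 984 and 689 counts.

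**Figure D4:**
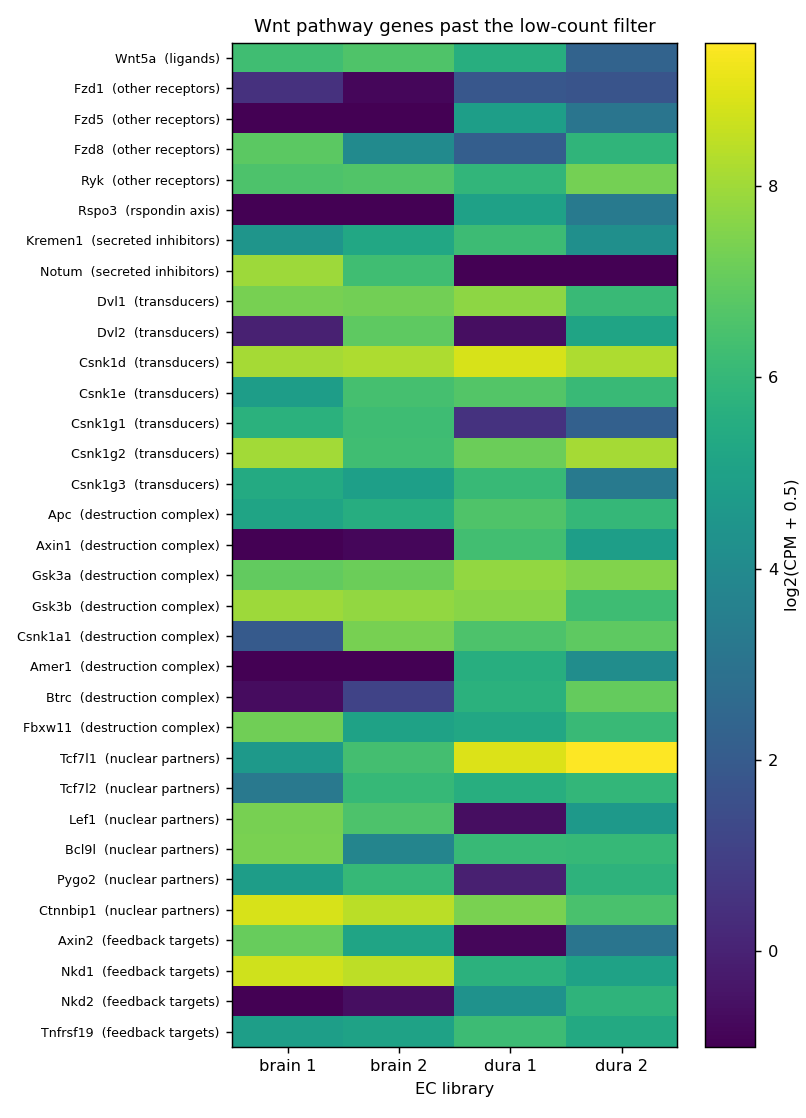
Levels as log2(CPM + 0.5), shown by colour, of the 33 pathway genes that passed the low-count filter (rows, with their list in brackets) in the 4 EC libraries (columns). Read along a row, Notum and Nkd1 are lighter in both brain libraries and Tcf7l1 in both dura mater libraries, and rows such as Dvl2 change between replicates. Colours are not comparable between rows as amounts of RNA.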

How the data were processed

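RNA of sorted ECs was made into libraries with a kit that the labels name as Lexogen QuantSeq, and 1 table of raw counts per library was deposited by the authors, with a whole-number count per gene symbol. Per the methods of the study, reads were mapped with TopHat and analysed with cufflinks. The submitters' processing notes name Bowtie2, edgeR and mm10. The counting step, annotation, use of strand and molecular identifiers are not given in the sources used here. Whether reads of overlapping genes on opposite strands were told apart is therefore not known. Of 23282 entries, 35 symbols stood on more than 1 line, and lines were tested separately.

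Groups and replicate numbers came from sample titles. Column headers of the deposited counts do not follow these numbers. Counts were tested across all genes with the quasi-likelihood test of edgeR 4.0.16 (R 4.3.3, TMM scaling, filterByExpr, tissue as the only term), with Benjamini-Hochberg adjustment over 9347 genes at 0.05. It stands in for cufflinks, which needs alignments. Log2 fold changes used a prior count of 2, and the SE was the size of the log2 fold change over the square root of F. CPM are counts over TMM-scaled library size. Counting intervals are exact Poisson (95%), and a count of 0 was read against 3 counts. Both cover counting error of reads only, so folds against 3 counts are not bounds on the number of molecules. Alternatives were DESeq2 1.42.0, limma-voom (limma 3.58.1), the newer edgeR dispersion estimate, other scalings and filters, a prior count of 0.5, a replicate block and each library left out. Scripts were tested on simulated counts.

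Members, gene lists and markers were chosen with earlier results of these data known. Named pathway genes were those past the threshold, then the highest by mean CPM until 3 per list were named, plus Ndp, Wnt7a and Wnt7b. Axin1, Btrc, Amer1, Nkd2 and the ratio of Lrp5 to Lrp6 fall outside this rule and were chosen after their values were seen. Positions are from GENCODE M21 (GRCm38), matched by symbol. Protein sequences are not analysed here.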

Additional observations from a re-analysis of the deposited data

How the results depend on the processing

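Of the 8 members, 5 turned sign in at least 1 of the alternatives, and Lrp5, Adgra2 and Ctnnb1 did not. Fzd4 was at −1.68 in limma-voom and −1.30 with the replicate block, and Lrp6 at −0.01 in DESeq2 and with RLE scaling. With 1 library left out, log2 fold changes ranged from −5.95 to 3.05 for Fzd4, −1.79 to 0.45 for Fzd6, −0.29 to 0.27 for Lrp6, −0.04 to 8.35 for Tspan12 and −4.11 to 3.11 for Reck. Members passing were 0 in each alternative that kept every library. This does not cover the fits with 1 library left out, which for members were read for the size of the estimate only. In the fits with 1 library left out, 1 tissue has a lone library, which is assumed to vary like the other tissue.

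Genes differing numbered 57 (40 higher, 17 lower in dura mater ECs). There were 810 in DESeq2, 306 with the newer edgeR dispersion estimate, 326 without a low-count filter, 141 (75 and 66) with at least 10 counts in every library, 80 (40 and 40) in limma-voom and 80 to 740 with a library left out. Of the pathway lists 0 genes passed, against 8 in DESeq2, 3 with the newer dispersion estimate, 3 without a filter, 2 with at least 10 counts in every library and 1 to 9 with a library left out. With the replicate number as a block, 224 genes differed, 0 of them members and 3 of the pathway lists (Notum, Tcf7l1 and Nkd1). Same-numbered libraries did not deviate together (correlation −0.0208 over 9347 genes). With 2 libraries per tissue, that correlation cannot show whether they share mice or a preparation. The cause of the differences between settings was not tested. With at least 10 counts in every library, Fzd4, Tspan12, Adgra2 and Reck could not be tested. At these depths, 3 counts stand for 0.181 to 0.226 CPM. What set the low values was not tested.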

Other observations

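For each member, the tested gene with the nearest profile over the 4 libraries was found, as the Euclidean distance between log2(CPM + 0.5) values centred on their mean. With 4 libraries and 9347 genes, close profiles are easily found, and a short distance says nothing of shared function. Ctnnb1 was nearest to Morf4l1 (distance 0.0599), with 5293 and 5308 counts in brain ECs against 3347 and 5025 in dura mater ECs. Lrp6 was nearest to Ndufs4 (0.0184) and Lrp5 to Ckap4 (0.0695). Fzd6 was nearest to Suds3 (0.241), with brain replicate 1 highest at 3396 counts and the other 3 libraries at 771 to 1418.

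Of the members with a library at or near 0, Tspan12 was nearest to Spata2 (0.167), which had 759 and 0 counts in brain ECs against 777 and 739 in dura mater ECs. Adgra2 was nearest to Fbxo28 (0.337), with 1632 and 631 against 0 and 349 counts. Reck was nearest to Gfer (0.144), with 157 and 1 against 2 and 52 counts. Fzd4 had the farthest companion, Alg14 (1.17), whose lowest library, dura mater replicate 2, had 26 counts against 4 of Fzd4.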
